A study of Homo sapiens with 7 samples.

Results

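The genes of the Mediator complex were followed in H4 cells kept under blue light for up to 720 min. The members are the rows of the count tables whose symbol is MED with a number (with or without a final L), CCNC, CDK8 or CDK19: 33 of the 18817 genes listed in any of 7 libraries. H4 is an established human neuroglioma line. All cells carried Cry2Olig-PKR, a fusion of a protein that clusters under blue light with PKR, the kinase that phosphorylates the translation factor eIF2 and starts the integrated stress response. The groups differ only in the length of continuous illumination: 0, 60, 120, 240, 480, 600 or 720 min, with 1 library each. The sources used here do not say whether the line is a single clone. Lit cells without the fusion, and unlit cells at the later times, were not analysed here, so light and time in the plate cannot be told apart.

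Mediator is a large nuclear assembly that carries signals from DNA-bound transcription factors to RNA polymerase II at promoters. Its head and middle modules contact the polymerase and the general transcription factors, the tail contacts activators, and MED14 is the scaffold that joins them. A separable kinase module, built of CDK8 or its paralog CDK19, cyclin C (CCNC), MED12 or MED12L and MED13 or MED13L, docks on this core through MED13 or MED13L and hinders its contact with the polymerase. The members were grouped as 7 head genes, 9 middle genes (with MED19 and MED26), the scaffold MED14, 5 tail genes, 4 genes for the metazoan subunits MED27 to MED30, and 7 kinase module genes.

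The promoters shown are those of MED18, which had the lowest ratios to the unlit library, and of MED10, the gene with the firmest rise. Each sequence is the 250 bases before the RefSeq start (GRCh38.p14, plus strand at chr1:28328790-28329039 for MED18, minus strand at chr5:6378548-6378797 for MED10), and capitals mark a match to TGACGTCA, the palindromic cAMP response element bound by CREB and ATF proteins.
MED18: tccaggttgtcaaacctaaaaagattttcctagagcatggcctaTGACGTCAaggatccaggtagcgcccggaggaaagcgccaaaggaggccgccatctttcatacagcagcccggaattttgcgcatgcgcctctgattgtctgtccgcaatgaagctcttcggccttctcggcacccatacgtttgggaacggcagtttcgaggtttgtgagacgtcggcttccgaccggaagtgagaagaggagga
MED10: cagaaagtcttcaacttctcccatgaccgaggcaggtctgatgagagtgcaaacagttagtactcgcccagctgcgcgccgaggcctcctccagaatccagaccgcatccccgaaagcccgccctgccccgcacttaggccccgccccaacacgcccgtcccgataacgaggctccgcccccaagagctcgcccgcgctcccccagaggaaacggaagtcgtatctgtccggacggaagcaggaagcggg

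Both motifs searched, TGACGTCA and TGATGNAA (the core of the element bound by ATF4 with C/EBP proteins), were looked for on both strands. TGACGTCA lies in 1.77% of 27305 promoters of that length and in 1 of the 25 members matched by symbol, MED18, where it begins 206 bases before the start. TGATGNAA lies in 3.19% of the promoters and in 0 of the 25. These matches describe letters in a window and say nothing of binding.

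Each library was counted from transcript 3' ends with unique molecular identifiers. Transcripts summed to between 7048253 and 8911818 in the 6 complete tables. The 480 min table stops partway through the alphabet, holds 5266123 transcripts and lists all 33 members. The 60 and 120 min libraries had 2.11 and 2.08 reads per identifier, against 2.32 to 2.38 in the others. Of the line's markers, VIM (5160 to 6927 counts) and CD44 (3744 to 5904) were abundant and SOX2 was present (139 to 426). NES, a marker of neural progenitors, was near 0, with 14, 11, 5, 2, 2, 2 and 3 counts in order of time. GFAP and S100B, often used as astrocyte markers, were at 0 counts, under a floor of 3 counts. This held in every library that lists their part of the alphabet. Leukocyte, epithelial, endothelial and liver markers had at most 7 counts.

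Summed over the members, Mediator transcripts stood at 1220, 1320, 1340, 1434, 1397, 1323 and 1397 CPM in order of time. CPM is the usual depth-scaled count, here on effective library sizes, and all series of 7 values below follow the same order: 0, 60, 120, 240, 480, 600 and 720 min. The sum was lowest in the unlit library. Of the 31 members that reached 50 counts, 22 (71.0%) stayed within 2-fold between their lowest and highest library, beside 63.8% of 6590 genes of the same kind. The unlit library was the highest for 6 of the 31 (19.4%), beside 23.6% of the 6590. In such bulk RNA, fewer cells that express a gene and less RNA per cell cannot be told apart.

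A trend was tested as a straight line in minutes and is printed as the log2 difference that the line spans over 720 min. A bend was tested as a quadratic term and is printed as the log2 height of the fitted curve at 360 min above (positive) or below (negative) the midpoint of its 2 ends (edgeR quasi-likelihood, Benjamini-Hochberg over 13566 genes, threshold 0.05). In all, 32 members were tested. CDK8 had too few counts. Rising trends were called for 2 members, MED10 and MED8, and for 3.90% of all genes. Falling trends were called for 0 members and for 2.96% of all genes. At an unadjusted p under 0.05, edgeR gave 2 falling members of 32, MED14 and MED31, beside 1524 of all 13566 genes. DESeq2 called the same 2 after adjustment. Upward bends were called for 7 members (21.9%, against 17.5% of all genes) and downward bends for 4 (12.5%, against 13.7%). Members were thus called about as often as genes at large. The median bend was 0.13 over the members and 0.01 over all genes, and the median trend -0.17 and -0.02.

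**Figure D1:**
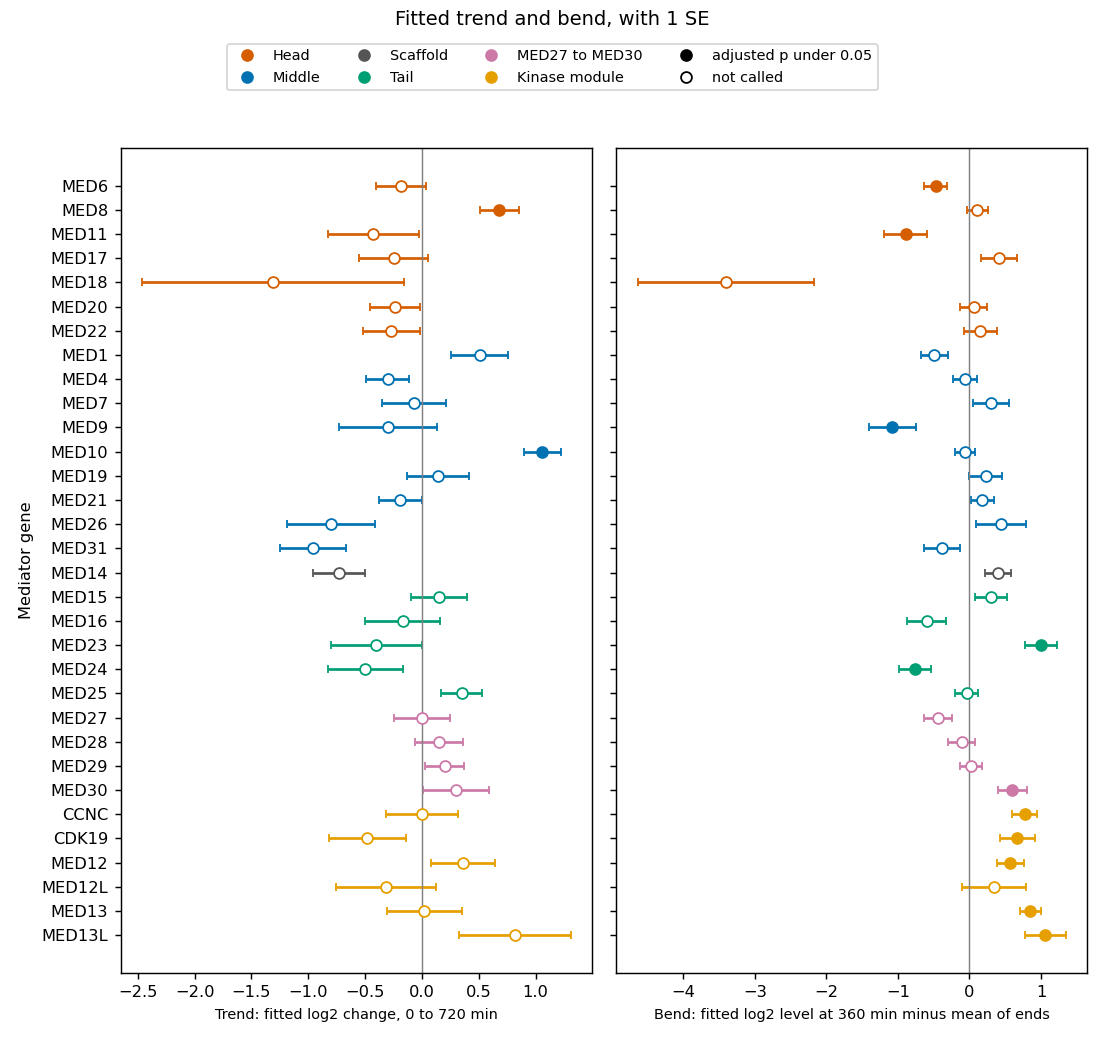
Fitted trend (left) and bend (right) of the 32 tested Mediator genes on the log2 scale, with bars of 1 standard error from the edgeR fit; filled points have an adjusted p under 0.05 and colours give the module. MED10 and MED8 are the filled points on the left, and 5 of the 6 kinase module genes are filled and above 0 on the right, while MED18 lies farthest to the left in both panels with the widest bars.

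Single times were set against the 0 min library without a test, as log2 ratios. Their exact binomial 95% intervals hold counting error alone. At 60 min 1 of 31 members was at least 2-fold higher (2.16% of the 6205 genes listed at all times) and 0 were at least 2-fold lower (0.387%). At 120 min 1 was higher (5.25%) and 1 lower (3.47%), and at 240 min 1 was higher (9.93%) and 3 were lower (6.64%). At 480 min 1 was higher (9.49%) and 4 were lower (6.19%), at 600 min 1 and 3 (6.36% and 4.43%), and at 720 min 2 and 0 (5.14% and 4.87%). The median ratio over these members ran from 0.02 to 0.15 and that over all genes from -0.04 to 0.00. Of the 31, MED18 alone went beyond 4-fold in either direction.

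**Figure D2:**
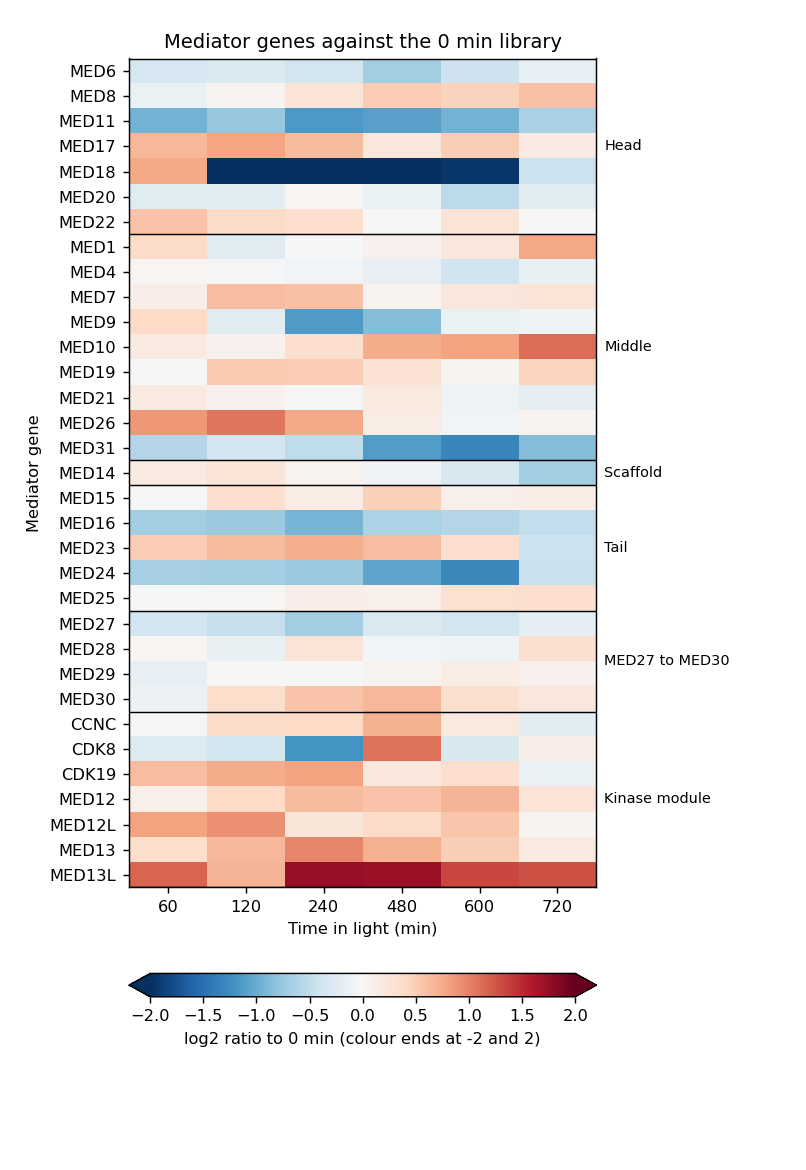
Log2 ratio of each of the 33 Mediator genes (rows, by module) to the 0 min library at 6 times in light (columns, in minutes); red is higher, blue lower, and the colour ends at -2 and 2. MED18 is the only row that reaches the blue end, at 120, 240 and 480 min with -3.37 at its lowest, and MED13L is the reddest row, with 1.74 at 240 min.

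The head module held the widest spread of ratios, through MED18 alone. Without MED18, the other 6 head genes ran from -1.15 (MED11) to 0.79 (MED17). The middle module ran from -1.31 (MED31) to 1.11 (MED10). MED18 is a head subunit that pairs with MED20 in a movable jaw on the head. It stood at 81, 116, 6, 16, 7, 20 and 53 counts in order of time. In CPM these are 9.54, 16.2, 0.768, 1.76, 0.707, 2.29 and 7.00. The gene was thus high in the first pair of libraries, low in the next 4 and close to its start in the last. Its log2 ratio was 0.75 at 60 min (95% interval 0.34 to 1.19), -3.28 at 120 min (-5.12 to -2.45), -3.37 at 480 min (-5.11 to -2.65) and -0.43 at 720 min (-0.97 to 0.07). Without the prior count, the level at 120 min was 0.0805 of that at 0 min (0.0287 to 0.183).

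The low MED18 values were known before these fits and are given as a description. The bend was -3.41 ± 1.23 (SE, n = 7 libraries, edgeR adjusted p = 0.0947) and the trend -1.31 ± 1.15 (edgeR adjusted p = 0.547), so neither was called. Among the 15 alternatives, the bend was called only without the 60 min library (-3.37, edgeR adjusted p = 0.0052) and with DESeq2 (-3.69, adjusted p = 0.0176). Its size depended on the time scale: -2.49 on rank time (edgeR adjusted p = 0.181) and -0.57 on log time (edgeR adjusted p = 0.72). Without the 720 min library it was -3.21 (edgeR adjusted p = 0.4). The reads behind these counts, which are no separate measurement, numbered 93, 149, 8, 17, 7, 22 and 67 in order of time.

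Within each library, MED18 was also compared with the summed counts of all Mediator genes, where library size cancels. Its share was 0.782% at 0 min (exact 95% interval 0.621 to 0.971), 1.23% at 60 min (1.02 to 1.47) and 0.0573% at 120 min (0.0210 to 0.125). At 240, 480 and 600 min it was 0.123%, 0.0506% and 0.173%, and at 720 min 0.501% (0.376 to 0.655). The log2 odds of a Mediator transcript being MED18 were -3.78 at 120 min relative to 0 min, with a counting SE of 0.61. The interval at 0 min overlaps that at 720 min and none of those from 120 to 600 min.

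In the GENCODE annotation (release 29, GRCh38) MED18 overlaps no other coding gene and lies between SESN2 and PHACTR4 on the same strand. SESN2, which encodes a stress-induced inhibitor of mTORC1, stood at 20.2, 37.9, 64.6, 126, 170 and 155 CPM in the 6 libraries that list it. PHACTR4 stood between 72.8 and 101 CPM. Neither is listed at 480 min. SESN2 stood above its unlit level at 120, 240 and 600 min, where MED18 was low. It also did so at 60 min, where MED18 was high, and at 720 min, where MED18 was near its start. Whether the levels of these neighbours are linked was not tested.

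**Figure D3:**
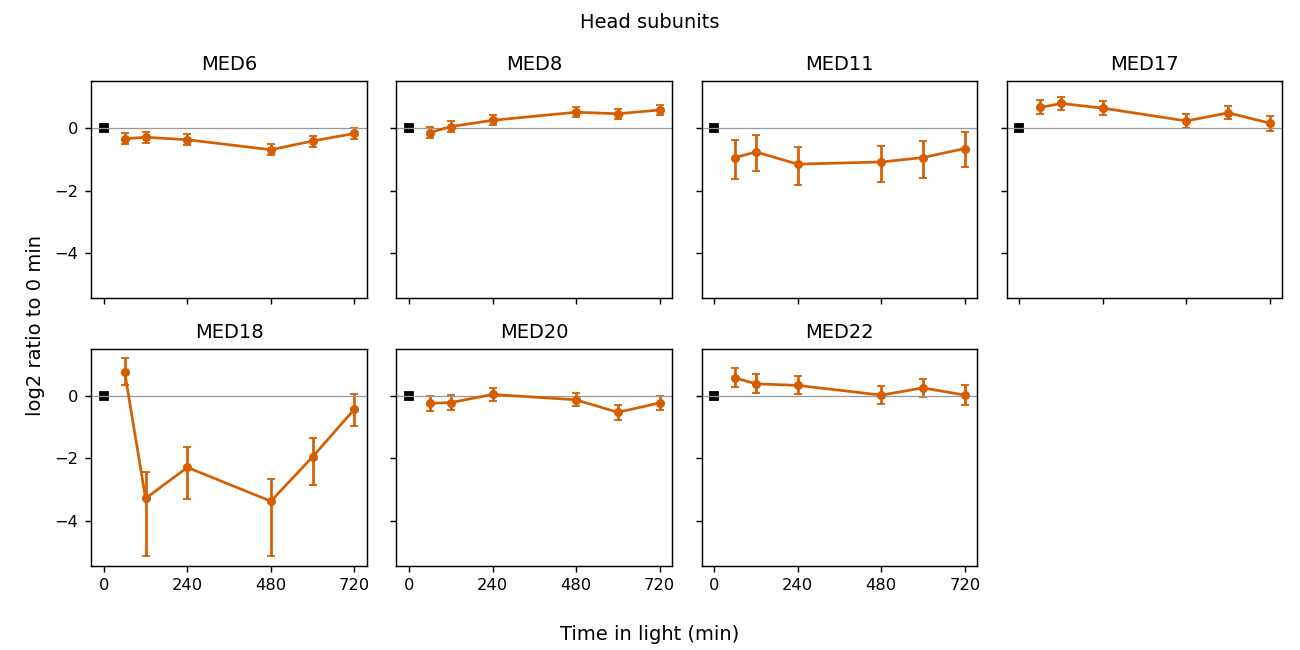
Log2 ratio to the 0 min library (black square) of the 7 head genes at 6 times in light (minutes), with exact binomial 95% intervals for counting error; there is 1 library per time. MED18 stands at -3.28 at 120 min and returns to -0.43 at 720 min, while the other 6 genes stay between -1.15 (MED11) and 0.79 (MED17).

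MED8, which tethers the MED18 and MED20 jaw to the head, rose by 0.68 ± 0.17 (SE, n = 7, edgeR adjusted p = 0.0476). It stood at 68.6, 62.3, 70.9, 81.5, 97.9, 94.2 and 103 CPM in order of time. The last 3 libraries were above the first 4. The call was lost without the 60, 120, 480, 600 or 720 min library (0.59 to 0.72, adjusted p from 0.0847 to 0.169) and with no count filter, read counts or either other time scale.

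MED11, a small subunit that pairs with MED22, bent downward by -0.89 ± 0.30 (edgeR adjusted p = 0.0415). It stood at 8.83, 4.47, 5.12, 3.86, 4.04, 4.47 and 5.55 CPM in order of time. The single unlit library was the highest, as it was for 23.6% of 6590 genes. MED6, which lies where head meets middle, bent downward by -0.47 ± 0.16 (edgeR adjusted p = 0.0440), with levels of 72.4, 57.3, 59.0, 55.8, 44.9, 54.4 and 64.5 CPM. The MED11 call was lost without any library but that at 60 min (-1.12 to -0.50, adjusted p from 0.0508 to 0.368), and the MED6 call without any library (-0.59 to -0.37, adjusted p from 0.0505 to 0.223). The MED11 call was also lost with DESeq2 (adjusted p = 0.114) and on log time (-0.62, adjusted p = 0.102), and the MED6 call in every other setting but RLE size factors and the stricter count filter (-0.48 to -0.22, adjusted p from 0.0511 to 0.359). MED11 overlaps CXCL16 on the opposite strand, and the sources used here do not say how such reads were assigned.

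MED17, the central head subunit, was called for neither shape: 34.3, 54.2, 59.4, 53.5, 40.2, 48.3 and 38.2 CPM in order of time. Its bend of 0.41 was called without the 480 min library (0.68, edgeR adjusted p = 0.0493) and on the log time scale (0.63, edgeR adjusted p = 0.0256). MED20, the partner of MED18, stood between 28.8 and 42.7 CPM, and MED22 between 20.4 and 30.3 CPM. MED20 and MED18 thus differed: at 120 min the ratio of MED20 was -0.22 (-0.45 to 0.01), outside the interval of MED18.

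The middle module held the firmest rise. MED10, a core subunit of the middle module, rose by 1.06 ± 0.16 (SE, n = 7, edgeR adjusted p = 0.00679). It stood at 72.3, 82.0, 76.5, 90.9, 121, 127 and 156 CPM in order of time, 2.16-fold the unlit level (1.96 to 2.39). Apart from 120 min, each library stood above the one before it. The call held in all 15 alternatives (0.95 to 1.12, adjusted p from 1.57e-08 to 0.0489).

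MED9, another small middle subunit, bent downward by -1.08 ± 0.33 (edgeR adjusted p = 0.0291). It stood at 27.8, 36.6, 23.4, 12.6, 15.1, 25.4 and 26.2 CPM in order of time. The 240 and 480 min libraries were the low ones. The call was lost without the 120, 240 or 480 min library (-1.09 to -0.74, adjusted p from 0.0524 to 0.179). It was also lost with read counts (-1.02, adjusted p = 0.0601), on rank time (-0.76, adjusted p = 0.133) and on log time (-0.23, adjusted p = 0.686).

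MED31, which joins head and middle, was called for neither shape, with a trend of -0.96 ± 0.29 (edgeR adjusted p = 0.0831; DESeq2 adjusted p = 0.0341). Its levels were 22.5, 14.8, 17.3, 15.8, 10.3, 8.95 and 12.3 CPM in order of time, with the unlit library the highest. MED26, a docking site for elongation factors, ran the other way in the early libraries: 14.0, 25.7, 29.7, 23.7, 15.6, 13.4 and 14.5 CPM in order of time. At 120 min its ratio was 1.07 (0.76 to 1.41), the highest of the members. MED26 was not called, but had a falling trend without the 0 min library (-1.24, adjusted p = 0.0201) and an upward bend on the log time scale (1.03, adjusted p = 0.00762).

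MED1, the subunit that binds nuclear receptors, was not called either. It stood at 94.5, 122, 81.3, 94.9, 101, 110 and 161 CPM in order of time, and its bend of -0.49 was called without the 0 min library (-0.69, edgeR adjusted p = 0.0387). MED19 stood between 26.6 and 38.4 CPM, and gained an upward bend without the 720 min library (0.80, edgeR adjusted p = 0.0462). MED4 (32.6 to 44.2 CPM), MED7 (18.6 to 28.5 CPM) and MED21 (74.8 to 97.4 CPM) were called for neither shape. On the same strand, MED7 overlaps HAVCR2, MED17 overlaps AP001273.2, and MED26 overlaps AC008764.1 and AC008764.4, so the counts of these 3 genes are uncertain. MED31 overlaps TXNDC17 and MED17 also overlaps TAF1D on the opposite strand.

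MED14, the scaffold on which head, middle and tail assemble, stood at 33.7, 38.2, 40.3, 35.3, 32.0, 26.8 and 20.6 CPM in order of time. The last pair of libraries was the lowest. Its trend of -0.73 ± 0.23 was not called (edgeR adjusted p = 0.0943). It was called without the 0 min library (-0.91, adjusted p = 0.0358) and with DESeq2 (-0.73, adjusted p = 0.0328), and an upward bend on the rank time scale (0.47, edgeR adjusted p = 0.0318).

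In the tail, MED23 and MED24 bent in opposite directions. MED23, which relays signals from MAP kinase targets such as ELK1, bent upward by 1.00 ± 0.23 (SE, n = 7, edgeR adjusted p = 0.00744). It stood at 8.83, 12.7, 13.8, 14.7, 13.7, 11.2 and 6.47 CPM in order of time, so that both ends lay below the 5 libraries between them. The call was lost without the 0 or 720 min library (0.85 and 0.87, adjusted p = 0.0541 and 0.0663) and on the log time scale.

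MED24, which anchors MED23 in the tail, bent downward by -0.76 ± 0.22 (edgeR adjusted p = 0.0199): 67.0, 41.9, 41.7, 40.0, 32.3, 27.2 and 49.0 CPM in order of time. The call was lost without the 0 or 720 min library (-0.60 and -0.34, adjusted p = 0.142 and 0.397) and on the log time scale (-0.37, adjusted p = 0.259). Both genes overlap another gene on the opposite strand (ARG1 for MED23, THRA for MED24).

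MED16, a further tail subunit, was called for neither shape, though the unlit library was the highest: 12.6, 7.69, 7.42, 6.51, 7.98, 8.37 and 8.85 CPM in order of time, with each ratio interval below 0. MED15, a target of many activators, stood between 14.3 and 20.3 CPM. MED25, a further activator target, stood between 33.8 and 43.9 CPM.

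Of the metazoan subunits, MED30 bent upward by 0.60 ± 0.20 (edgeR adjusted p = 0.0355). It stood at 18.4, 17.1, 23.4, 27.5, 29.1, 22.9 and 21.5 CPM in order of time. The call was lost without any library but that at 600 min (0.56 to 0.76, adjusted p from 0.0507 to 0.151), with DESeq2 (adjusted p = 0.0552), on rank time (0.46, adjusted p = 0.0758) and on log time (0.18, adjusted p = 0.567). MED27 was highest in the unlit library (30.5 CPM) and lowest at 240 min (18.8 CPM), and its bend was called without the 480 min library (-0.64, edgeR adjusted p = 0.0496). MED28 stood between 42.2 and 58.5 CPM, and MED29, with the smallest range of all members, between 53.4 and 67.0 CPM.

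In the kinase module, upward bends were called for MED13, CCNC, MED13L, MED12 and CDK19, 5 of the 6 genes tested (83.3%, against 17.5% of all genes), and downward bends for 0 (13.7% of all genes). MED12L had a bend of 0.34 (edgeR adjusted p = 0.589). The median bend was 0.72 beside 0.01 over all genes tested. At 120, 240 and 600 min all 5 members with 50 counts stood above their unlit level with intervals clear of 0. Their median ratio was 0.35, 0.67, 0.80, 0.71, 0.49 and 0.18 from 60 to 720 min. The 5 calls became 2 without the 0, 240 or 720 min library, 3 without the 60, 120 or 600 min library and 2 on the log time scale.

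MED13, the link between kinase module and core, bent upward by 0.85 ± 0.15 (SE, n = 7, edgeR adjusted p = 0.00247). It stood at 113, 144, 180, 222, 185, 159 and 128 CPM in order of time, a climb to 240 min and a descent after it. This bend held in all 15 alternatives (0.59 to 1.09, adjusted p from 7.31e-05 to 0.0431). CCNC, the cyclin partner of both kinases, bent upward by 0.77 ± 0.17 (edgeR adjusted p = 0.00617), with its highest level later: 58.3, 59.4, 75.4, 77.1, 95.6, 66.3 and 50.3 CPM in order of time. The CCNC call was lost without the 720 min library (0.70, adjusted p = 0.0517) and on the log time scale (0.34, adjusted p = 0.329).

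MED13L, the paralog of MED13, bent upward by 1.06 ± 0.29 (edgeR adjusted p = 0.0216). Its levels were 16.7, 37.6, 26.9, 56.6, 55.9, 42.6 and 40.8 CPM in order of time. All lit libraries stood above the unlit one, and the ratio at 240 min was 1.74 (1.49 to 2.04). Unlike MED13, it stood well above its start at 720 min, with a ratio of 1.28 (1.00 to 1.58) against 0.18 (0.05 to 0.31). The call was lost without the 0 or 240 min library (0.74 and 0.84, adjusted p = 0.121 and 0.137) and on the log time scale (0.60, adjusted p = 0.138).

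CDK19, a kinase of the module, bent upward by 0.67 ± 0.24 (edgeR adjusted p = 0.0477). It stood at 24.5, 37.7, 41.1, 42.9, 28.7, 31.1 and 22.3 CPM in order of time. MED12, which activates the kinase, bent upward by 0.57 ± 0.19 (edgeR adjusted p = 0.0388): 17.2, 18.4, 22.8, 26.8, 25.6, 27.6 and 20.6 CPM in order of time. These were the less firm calls of the module. That of CDK19 was lost without any library but that at 480 min (0.32 to 0.81, adjusted p from 0.0550 to 0.371), and also with RLE size factors (adjusted p = 0.0519) or read counts (adjusted p = 0.0622). That of MED12 was lost without the same 6 libraries (0.47 to 0.58, adjusted p from 0.0563 to 0.233), with DESeq2 (adjusted p = 0.0635), with no count filter (adjusted p = 0.0503), on rank time (0.45, adjusted p = 0.0669) and on log time (0.20, adjusted p = 0.488).

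**Figure D4:**
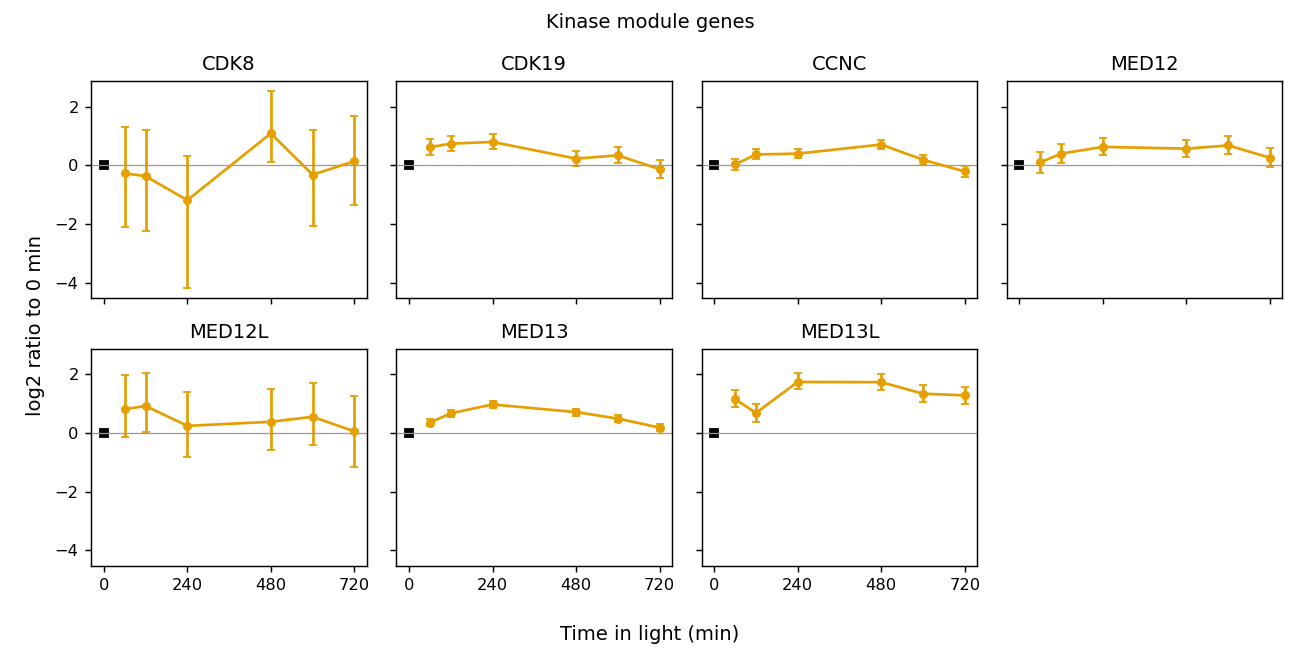
Log2 ratio to the 0 min library (black square) of the 7 kinase module genes at 6 times in light (minutes), with exact binomial 95% intervals for counting error. MED13 climbs to 0.97 at 240 min and is back at 0.18 at 720 min, MED13L remains at 1.28 there, and CDK8 and MED12L have wide intervals from few counts.

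The paralogs were compared inside each library. CDK8 had 9, 6, 6, 3, 25, 7 and 9 counts in order of time, so that CDK19 made up between 91.9% (480 min, 88.3 to 94.7) and 99.2% (240 min, 97.8 to 99.8) of the counts of both kinases. A 3' count depends on how well the annotated end is captured, so these shares are best read across times. MED12L had 14, 22, 26, 18, 22, 22 and 13 counts and was called for neither shape; its share beside MED12 was 14.3% at 60 min (9.17 to 20.8) and 6.90% at 240 min (4.14 to 10.7). The MED13L share beside MED13 was 12.9% (10.9 to 15.0), 20.7%, 13.0%, 20.3%, 23.2%, 21.1% and 24.2% (21.9 to 26.6) in order of time. The 0 and 120 min libraries were the low ones and their intervals did not reach those of the other 5.

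The kinase module as a whole took 19.1% (18.3 to 19.8), 22.8%, 26.1%, 29.8%, 28.3%, 25.0% and 19.0% (18.2 to 19.7) of all Mediator counts in order of time. It ended where it began. MED13 supplied the most counts, and without it the other 6 genes took 9.79%, 11.9%, 12.7%, 14.3%, 15.1%, 12.9% and 9.81%. The log2 odds at 240 min against 0 min were 0.85 with a counting SE of 0.05. The middle module had its largest share at 720 min, 38.8% (37.9 to 39.8) against 33.1% at 0 min (32.2 to 34.1). Its genes did not rise together: 5 of 9 stood above their unlit level at 720 min, with a median ratio of 0.05. From 0 to 720 min MED1 went from 803 to 1221 counts and MED10 from 614 to 1182. The share without MED1 and MED10 was not computed. The head took 17.6% to 21.0%, the tail 7.98% to 11.3% and MED14 1.48% to 3.01%.

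**Figure D5:**
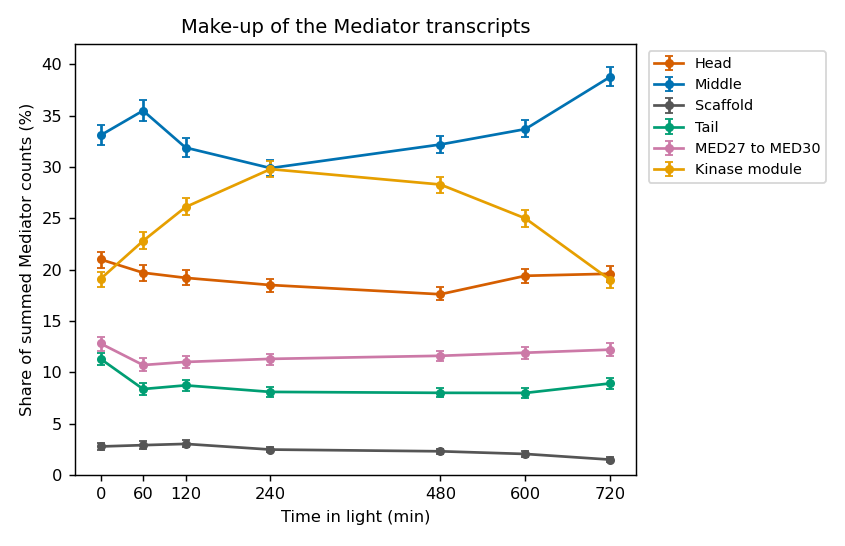
Share of the summed Mediator counts (percent) taken by each module in each library, against time in light (minutes), with exact binomial 95% intervals for counting error. The kinase module goes from 19.1% to 29.8% at 240 min and back to 19.0%, and the middle module is highest at 720 min with 38.8%.

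Other parts of the transcription machinery gave a frame for these counts. Over all genes tested, 17.5% bent upward and 13.7% downward. Of the 12 RNA polymerase II subunit genes, 0 bent upward and 5 bent downward (median bend -0.47), among them POLR2J by -0.73 ± 0.18 (edgeR adjusted p = 0.00958) and POLR2E by -0.56 ± 0.16 (edgeR adjusted p = 0.0191). Of 30 general transcription factor genes tested, 9 bent upward and 3 downward, with TAF2 at 0.85 ± 0.17 and GTF2A1 at 0.68 ± 0.16 (edgeR adjusted p = 0.00378 and 0.00819). Of 20 elongation and pause factor genes, 7 bent upward and 4 downward, with ELL2 at 1.18 ± 0.18 and AFF4 at 0.91 ± 0.14 (edgeR adjusted p = 0.00113 and 0.00119). Cohesin and its loader, which hold enhancers and promoters together with Mediator, had 6 of 10 genes bending upward and 0 downward, with NIPBL at 0.86 ± 0.15 and MAU2 at 0.91 ± 0.16 (edgeR adjusted p = 0.00220 and 0.00250). The kinase module (5 of 6) and the cohesin genes had upward bends most often and the polymerase genes had none; differences between these lists were not tested. All 12 polymerase genes come after the end of the 480 min table and were fitted on 6 libraries. The same holds for TAF2 and for every other gene of these lists that comes later in the alphabet. Kinase module genes were fitted on 7, so the lists rest on unlike sets of times. In the 4 lists together, 2 genes had a rising trend and 1 a falling one, beside 3.90% and 2.96% of all genes.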

How the data were processed

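Per the labels' protocols, RNA from each illumination time was made into 1 library with an adaptation of CEL-Seq2, which counts transcript 3' ends, using primer 4. Per the submitters' processing notes, BWA and hg19 were used; their versions, the annotation and the counter are unstated in these sources. The authors deposited expected counts per gene of reads, UMIs and transcripts, the last being UMI counts corrected for collisions among 4096 UMIs (checked against the deposited UMI tables). Only the barcode 4 column was used; 95 others were left out. ERCC rows (0.00596% to 0.0124% of reads in the complete tables) were left out of sizes and tests.

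Transcript counts were rounded. Genes with 10 counts in 3 libraries were fitted with edgeR 4.0.16 (R 4.3.3, TMM, robust quasi-likelihood). Because the 480 min table is incomplete, genes within its range (all members) used 7 libraries and the rest used 6, with p-values adjusted together. Residual degrees of freedom were 5 for the trend and 4 for the bend on 7 libraries. No time was repeated, so the spread combines noise with departure from the fitted shape and may be technical. Fits were tested on simulated data. Ratios to 0 min used a prior count of 2 (intervals without it) and 50 counts in either library for 2-fold counts. Alternatives were RLE factors, DESeq2 1.42.0, other count filters, UMI or read counts, log2(minutes + 30) or rank time, and each library left out. The members, gene lists and alternatives were chosen with earlier results of these data known. Values were given for MED18, every called member, the 2 highest and 2 lowest ratios at each time and the paralogs, and in the other lists for the 2 genes of smallest adjusted p. Other members' values were added for completeness. Promoters are from RefSeq (GRCh38.p14), and motifs were chosen with the results known.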

Additional observations from a re-analysis of the deposited data

Results flagged for a closer look

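The 95 barcode columns that belong to no primer named in the labels held 21 Mediator UMIs over the 7 libraries, against 73563 under barcode 4, or 0.0285% of the total; the source of these UMIs was not tested.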

How the results depend on the processing

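Of the 13 calls named for Mediator genes, those of MED10 (trend) and MED13 (bend) held in all 15 alternatives; each lost call kept its direction. Uncalled values were followed over the alternatives only for MED18, for shapes called under some setting, and for the named and median ratios. Among these, 2 changed sign. The MED26 bend (0.44) was -0.16 without 0 min, and the median Mediator ratio at 720 min (0.02) was -0.03 with total count scaling. The number of Mediator genes with a rising trend (2) was 1 with no count filter, read counts, log time or rank time, and 1 to 2 when a library was left out. Falling trends (0) numbered 2 with DESeq2 and 0 to 2 when a library was left out. Upward bends (7) numbered 4 on log time and 2 to 7 when a library was left out, those of the kinase module (5) numbered 2 and 2 to 5. Downward bends (4) numbered 2 with read counts, 0 on log time, 2 on rank time and 1 to 4 when a library was left out. Over all genes, trends (930) numbered 1572 with DESeq2 and 135 (without 600 min) to 1481 (without 0 min), also moving by over 1.5 times without 60, 120 or 720 min (282, 354 and 469), and bends (4238) numbered 2636 on log time, 4552 on rank time, and 1320 (without 240 min) to 4307 (without 600 min) when a library was left out, with 1933 without 0 min. Leaving out a library also removes a degree of freedom. At 240 min, 4 members were 2-fold from 0 min, and 7 by read counts. The log2 odds of the kinase module at 240 min (0.85) were 0.76 with UMI counts, 0.99 with read counts and 0.76 without MED13. The MED13 ratio at 240 min (0.97) was 0.82 with UMI counts and 1.19 with read counts. Bends gained under an alternative numbered 9 and trends 4. No paired analysis was possible because each group has 1 library. Few counts limit CDK8, MED12L and, from 120 to 600 min, MED18.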
